A study of Mus musculus with 8 samples.

Results

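The 36 genes described here encode enzymes of glycolysis (16 genes) and other targets or regulators of the hypoxia response (20 genes). They were chosen by name, and each gene was represented by the probe set that carried its symbol alone and had the highest mean level over the arrays. Of the 36 genes, 33 had such a probe set (14 enzymes and 19 other genes), of 12393 genes measured in this way. Gpi1 and Eno1 had no probe set under their own symbols and Bnip3l had only 3 probe sets that it shares with another symbol, so these genes were not analysed here. Gapdh was alone only on Affymetrix control probe sets, so its values are described without a test, which leaves 32 genes tested.

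RNA was taken from 4 hematopoietic cell lines, named PICALM6A, PICALM6B, PICALM6D and PICALM84 and written here as 6A, 6B, 6D and 84. All lines came from fetal liver of embryonic day 14 fit1 mouse embryos (Picalm fit1-5R, a mutation that leaves no functional Picalm, on the B6(Cg)-TyrC-2J/J background), and were immortalized with a retrovirus carrying MLL-ENL and eGFP. The culture medium held stem cell factor (50 ng/ml) and IL-3 (5 ng/ml). There was 1 array of every line carrying an empty MSCVneo vector (knockout) and 1 array of the same line carrying human PICALM in that retroviral vector (rescued), hence 8 arrays, 4 in each group. The rescue is a vector-driven cDNA and not the repaired mouse gene. All 8 arrays share the loss of mouse Picalm and the fusion oncogene.

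Glycolysis breaks glucose down to pyruvate in the cytosol, and lactate dehydrogenase turns the pyruvate into lactate when it is not used in the mitochondria. The transcription factor HIF is formed by an oxygen-sensitive alpha subunit and a stable partner, and prolyl hydroxylases mark the alpha subunit for destruction when oxygen is present. When HIF accumulates it activates genes for glucose uptake, most glycolytic enzymes, the kinases that keep pyruvate out of the mitochondria, and its own hydroxylases. Blood progenitors in the marrow live at low oxygen and are known for their use of glycolysis.

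HIF binds DNA at short elements whose core reads ACGTG or GCGTG. In the 250 bases before the annotated starts of these genes (RefSeq, GRCm38.p6, in which 33 of the 36 genes were listed), 28 of 33 genes (84.85%) held at least 1 such pentamer on either strand, compared with 55.69% of the genes that have a probe set of their own and 41.54% of all genes in the table. Windows of 90 bases from 6 promoters are shown. These genes carry the pattern described below and lie in its different branches (mitophagy, oxygen sensing, pyruvate entry, glucose uptake and glycolysis). Each window was placed to hold the most pentamers with a margin of bases kept at both ends, and only promoters that held one were chosen. Gys1 and Tpi1, which also carry the pattern, held none, nor did a second annotated start of Pdk1. The capitals mark ACGTG and GCGTG read on either strand, so that CACGT and CACGC are the same pentamers on the opposite strand, and CACGTG, which is also the E-box of other factors, holds ACGTG on both. The windows are chr7:138909555-138909644 for Bnip3, chr8:124949307-124949396 for Egln1 and chr12:54204035-54204124 for Egln3, all on the minus strand, and chr2:71873101-71873190 for Pdk1, chr4:119108651-119108740 for Slc2a1 and chrX:106186914-106187003 for Pgk1, all on the plus strand, each read from 5′ to 3′ toward the gene.
Bnip3: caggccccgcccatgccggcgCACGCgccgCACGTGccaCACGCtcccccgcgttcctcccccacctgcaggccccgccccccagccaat
Egln1: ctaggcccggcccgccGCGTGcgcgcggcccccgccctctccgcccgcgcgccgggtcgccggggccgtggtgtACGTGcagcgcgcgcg
Egln3: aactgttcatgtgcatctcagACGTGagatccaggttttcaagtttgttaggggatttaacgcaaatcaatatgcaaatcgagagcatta
Pdk1: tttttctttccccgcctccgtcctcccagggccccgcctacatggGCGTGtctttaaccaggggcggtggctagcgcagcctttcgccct
Slc2a1: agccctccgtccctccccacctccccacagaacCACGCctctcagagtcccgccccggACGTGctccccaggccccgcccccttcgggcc
Pgk1: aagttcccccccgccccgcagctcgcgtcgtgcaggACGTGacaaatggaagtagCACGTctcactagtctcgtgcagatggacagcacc
The Bnip3 window held 4 of the 5 matches in its promoter. Those of Egln1, Slc2a1 and Pgk1 held 2 each, and those of Egln3 and Pdk1 held 1 each. Of the measured genes in the promoter table, 16 of the 18 with the pattern described below and 11 of the other 13 held a match, so the match did not separate these groups. A match describes the letters of the window and is not evidence of binding.

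The deposited values are log2 levels after RMA, an array summary that adjusts for background and brings all arrays to a common distribution, and array medians ran from 7.32 to 7.35. All 12 hematopoietic identity genes were measured, with mean levels from 7.59 (Il3ra) to 13.1 (Myb), and the 10 hepatocyte and stroma genes had mean levels from 5.08 to 8.45. No probe set carried the symbol Picalm, so the labels could not be checked against the targeted gene. Line 84 stood apart from the others over all probe sets. Its 2 arrays correlated with those of the other lines at 0.970 to 0.985, whereas arrays of the other lines correlated among themselves at 0.995 to 0.998, and its change from knockout to rescued had an SD of 0.35 over all probe sets, against 0.22 in 6A, 0.18 in 6B and 0.15 in 6D (log2). Results are therefore given by line as well as over all lines.

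The comparison of PICALM-rescued with Picalm-knockout cells over all lines gave no call among these genes. The median of the mean difference, rescued minus knockout, was −0.03 over the 14 enzymes and −0.02 over the 19 other genes, beside 0.01 over all genes (log2). In limma, 0 of the 32 genes tested and 0 of 22626 probe sets (0%) passed at an adjusted p under 12.3%, the false discovery rate named in the study's methods. At an unadjusted p under 0.05 the counts were 0 of 32 genes and 1074 probe sets (4.75%). SAM, the method of the study, was coded anew from its published statistic. It called 22 probe sets higher and 39 lower and none of these genes. The study's own SAM list at the 12.3% rate was longer, and the study lists Hk1 in a pathway elevated with PICALM. A fit blocked by cell line called 18 probe sets (0.0796%) and none of these genes, 4 of which (Hk1, Pfkm, Slc2a3 and Egln3) had an unadjusted p under 0.05, where 12.5% of all probe sets did.

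The lines were split. In PICALM-rescued cells the median of the enzymes was −0.17 in 6A, −0.13 in 6B and −0.04 in 6D but 0.26 in 84, and that of the other hypoxia genes was −0.22, −0.11, −0.11 and 0.36, while the median of all genes lay between −0.01 and 0.02 in every line (log2). A total of 19 of the 33 genes (7 enzymes and 12 others) were lower with PICALM in 6A, 6B and 6D and higher in 84, a pattern held by 5.95% of all genes. These were Pfkl, Pfkp, Aldoa, Aldoc, Tpi1, Pgk1 and Ldha among the enzymes, and Slc2a1, Slc16a3, Pdk1, Bnip3, Egln1, Egln3, Ndrg1, P4ha1, P4ha2, Ddit4, Higd1a and Gys1 among the others. Both scalings that were tried, quantile normalization and centring on the median, gave 18. Over all tested probe sets of these genes, 36 of 64 (56.2%) had the pattern. Without regard to 84, 20 genes were lower with PICALM in the 3 other lines (18% of all genes), Pfkm being the one added, and 3 (Hk1, Slc2a3 and Pfkfb3) were higher (21.7% of all genes). The opposite pattern, higher in 3 lines and lower in 84, was held by Pfkfb3 alone (8.14% of all genes). Hk1 and Slc2a3 were higher in all 4 lines (13.4%), Pfkm was lower in all 4 (12%), and the remaining 10 genes were mixed.

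**Figure D1:**
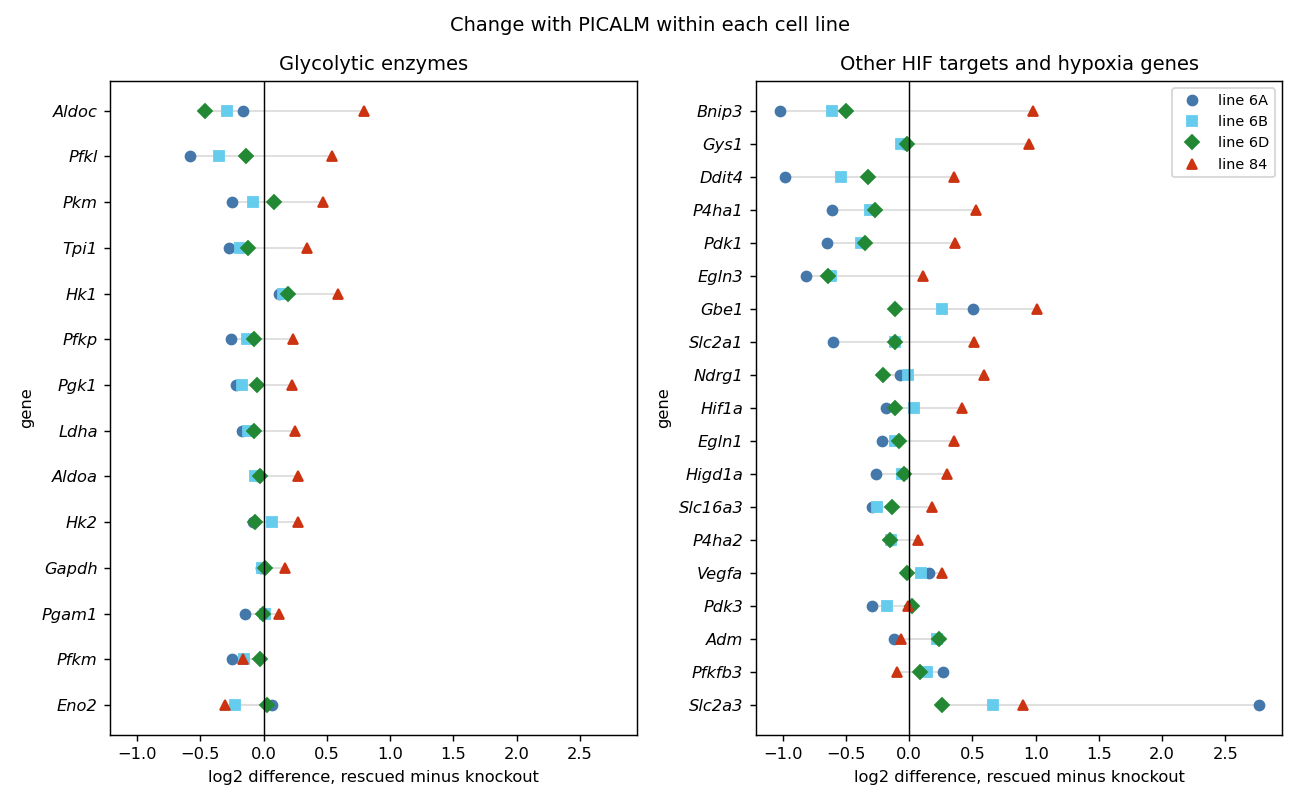
Log2 difference, rescued minus knockout, of each of the 33 genes in each of the 4 cell lines, with 1 symbol per line and genes ordered by the difference of line 84 from the other lines. In 27 of the 33 genes the triangle of line 84 lies to the right of the symbols of all other lines, and Slc2a3 in line 6A (2.76) is the farthest point.

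The difference of line 84 from the other lines was tested directly, with the 4 within-line differences as the data and the 1 line set against the 3. It assumes that line 84 varies as the others do, since it was measured as 1 pair, and the spread came from the other 3 lines alone. Over all probe sets the change had an SD of 0.35 in 84 and of 0.15 to 0.22 in the others (log2). Whether the assumption holds was not tested, and if it does not, the SE and adjusted p for line 84 are too small. The change in 84 exceeded that of every other line in 27 of the 33 genes (81.8%), beside 30.7% of all genes. In limma 12 of the 32 genes tested were called, all with the higher change in 84, where 865 of 22626 probe sets were called in that direction (3.82%) and 724 in the other (3.2%). The 12 were Hk1, Pfkl, Aldoc and Tpi1 among the enzymes and Pdk1, Bnip3, Egln1, Egln3, Ndrg1, P4ha1, Hif1a and Gys1 among the others. The median of the difference between the lines was 0.38 over the enzymes, 0.50 over the other genes and −0.02 over all genes (log2). These genes are brighter than most, and with the dimmest 40% of probe sets left out 21 of 29 were called, beside 9.73% of the probe sets in that direction. At an adjusted p under 0.05, 4 passed (Aldoc, Bnip3, Egln3 and Gys1). With 1 of the other lines left out, 10 (6A), 7 (6B) or 11 (6D) were called, and Hk1, Egln1 and Hif1a lost their call each time, Tpi1 without 6A or 6B and Pfkl without 6B.

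**Figure D2:**
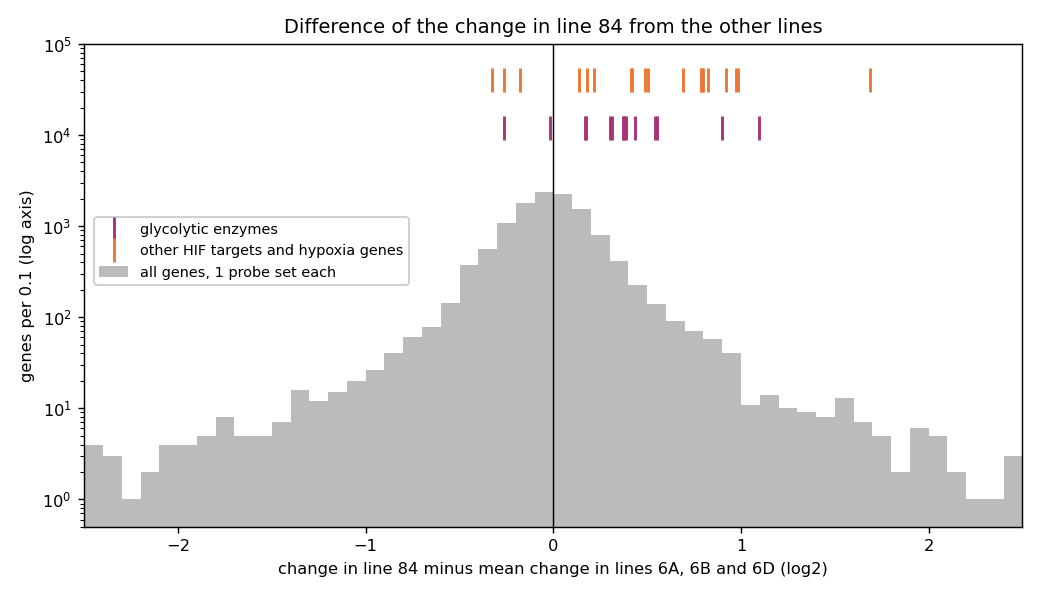
Number of genes (log axis) by the difference of the change in line 84 from the mean change in lines 6A, 6B and 6D (log2, axis from −2.5 to 2.5), in grey for all 12393 genes (those beyond the axis are not drawn), with 1 tick for each of the 33 genes above. The medians are −0.02 for all genes, 0.38 for the glycolytic enzymes and 0.50 for the other HIF targets, and the tick farthest to the right is Bnip3 (1.69).

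Glucose enters the cell through facilitative transporters, of which Slc2a1 (GLUT1) is the widespread basal form and Slc2a3 (GLUT3) the high-affinity form. Slc2a1 was at 11.09, 10.83, 10.69 and 10.72 in the knockout arrays of 6A, 6B, 6D and 84 and at 10.49, 10.72, 10.58 and 11.23 in the rescued arrays (log2). It was 1.52-fold lower with PICALM in 6A and 1.43-fold higher in 84. The difference of the change in 84 was 0.79 ± 0.22 (SE) and did not pass in limma (adjusted p = 0.156), but all 3 of its probe sets had the same pattern and 1 of them, with a difference of 0.97, was called (adjusted p = 0.0871).

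Slc2a3 had the largest difference of the 33 genes over all lines. Its knockout levels were 7.57, 7.07, 7.89 and 9.10 in 6A, 6B, 6D and 84, and its rescued levels 10.33, 7.73, 8.15 and 10.00. Rescued cells were higher in each line, by 6.78-fold in 6A, 1.58-fold in 6B, 1.20-fold in 6D and 1.87-fold in 84. The mean difference was 1.15 ± 0.68 (SE, n = 4 per group, log2) with an adjusted p of 0.969 in limma, and the groups overlapped. With the line as a block the SE was 0.41 (adjusted p = 0.363 in limma). Another probe set of Slc2a3 gave differences of 2.53, 0.77, 0.48 and 0.72, so line 6A led on both. The remaining 2 probe sets, at mean levels of 5.05 and 4.40, were below the lower quartile of the arrays and mixed, at 0.77, 0.22, −0.10 and 0.42 and at 0.13, 0.24, −0.17 and −0.20. Without line 6A the mean difference was 0.61.

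Hexokinases trap glucose by phosphorylation and so catalyse the first step of its use. Hk1, the housekeeping form, was at 10.60, 10.56, 10.51 and 10.06 in the knockout arrays of 6A, 6B, 6D and 84 and at 10.72, 10.71, 10.70 and 10.65 in the rescued arrays. Every rescued array lay above every knockout array. No other of the 33 genes had groups without overlap, in either direction, and 3.52% of all genes did, so 1 of 33 is near that share. An exact permutation test gave a two-sided p of 0.0286, the smallest that 4 arrays against 4 allow. This p restates the lack of overlap and does not use the pairing of arrays by line. The adjusted p of Hk1 over all lines was 0.969 in limma. The change in 84, of 1.50-fold, exceeded the others by 0.43 ± 0.09 on the log2 scale (adjusted p = 0.0893 in limma), and 84 differed from the mean of the other lines by −0.49 in the knockout state and by −0.06 when rescued. Hk2, the hypoxia-inducible form, was at 10.66, 10.47, 10.60 and 11.21 in knockout and 10.57, 10.54, 10.53 and 11.48 in rescued cells. Its level in line 84, as the mean of both arrays, was above that of the other lines by 0.78 ± 0.06 (adjusted p = 0.00314 in limma), and its change there, of 1.21-fold, was not called.

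Phosphofructokinase catalyses the main regulated step of glycolysis, and has liver (Pfkl), muscle (Pfkm) and platelet (Pfkp) subunits. Pfkl was at 10.34, 10.30, 9.96 and 10.04 in the knockout and at 9.76, 9.94, 9.81 and 10.58 in the rescued arrays of 6A, 6B, 6D and 84. PICALM-rescued cells of 6A were 1.50-fold lower and those of 84 were 1.45-fold higher, and the difference of the changes was 0.90 ± 0.18 (adjusted p = 0.0893 in limma). Both of its probe sets had this pattern and both were called. Pfkm was at 8.52, 8.40, 8.35 and 9.13 in knockout and at 8.28, 8.24, 8.33 and 8.97 in rescued cells, so it was lower with PICALM in each line, by 1.02-fold to 1.19-fold. Its mean difference was −0.15 ± 0.22 (SE, log2; adjusted p = 0.978 in limma), and it stood out by its level in 84, 0.70 ± 0.06 above the other lines (adjusted p = 0.00312). The SE of 0.22 for Pfkm does not use the pairing by line. With the line as a block it was 0.05, and Pfkm still did not pass (adjusted p = 0.359 in limma). Pfkp had the pattern of Pfkl at smaller size on its brightest probe set, from −0.26 in 6A to 0.23 in 84, but not on its other one (−0.36, 0.09, 0.01 and 0.00). Pfkfb3, which makes the sugar phosphate that activates phosphofructokinase, was the exception with differences of 0.27, 0.14 and 0.09 in 6A, 6B and 6D and −0.10 in 84.

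Aldolase and triose phosphate isomerase split the hexose into interconvertible trioses. Aldoc, the brain form of aldolase, was at 9.34, 8.82, 7.87 and 7.40 in the knockout and at 9.18, 8.53, 7.41 and 8.19 in the rescued arrays of 6A, 6B, 6D and 84. Its change was −0.46 in 6D and 0.79 in 84, and the difference of line 84, 1.10 ± 0.14, was the largest among the enzymes (adjusted p = 0.0339 in limma). Tpi1 was at 13.35, 13.26, 13.20 and 12.96 in knockout cells and at 13.07, 13.07, 13.07 and 13.31 in rescued cells. The rescued arrays of 6A, 6B and 6D were thus equal to 2 decimals while that of 84 lay above them, and the difference of the changes was 0.54 ± 0.10 (adjusted p = 0.0767), with the same pattern and a call on all 3 of its probe sets. Aldoa, the main aldolase of blood cells, had differences between −0.07 and −0.03 in 3 lines and 0.27 in 84, which was not called (adjusted p = 0.148). Its 3 other probe sets were higher in 84 too but mixed in the other lines.

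Of the enzymes of the later steps, Pgk1 and Ldha had the pattern and Gapdh, Pgam1, Eno2 and Pkm were mixed. Gapdh, which oxidizes the triose phosphate, differed by −0.02, −0.01, 0.01 and 0.17 on its brightest control probe set in 6A, 6B, 6D and 84. The control probe sets for the 3′ and 5′ ends of Gapdh differed by 0.09 in the rescued array of 84 and by −0.07 to −0.01 in the other 7 arrays, and those of beta-actin by 0.25 in the rescued array of 84 and by 0.20 to 0.27 in the others. Both are measures of RNA integrity, and their part in the results was not tested. Pgk1, which makes the first ATP of the pathway, had differences of −0.22, −0.17, −0.05 and 0.23 with the same pattern on all 3 probe sets. Ldha, which makes lactate, had −0.17, −0.12, −0.08 and 0.25. Their differences of line 84, 0.38 ± 0.10 and 0.37 ± 0.09, missed the threshold (adjusted p = 0.154 and 0.127 in limma). Pkm, the pyruvate kinase of most tissues, was 0.47 higher in 84 and between −0.25 and 0.08 in the others (adjusted p = 0.144). Pgam1 ranged from −0.14 to 0.12. Eno2, the neuronal enolase, was at a mean level of 4.53, below the lower quartile of the arrays (5.37 to 5.46), and had differences from −0.30 to 0.07. Slc16a3 (MCT4), which exports the lactate, was lower with PICALM in 6A (−0.29), 6B (−0.26) and 6D (−0.14) and higher in 84 (0.18). Its level in 84 differed from the other lines by −0.97 ± 0.21 (adjusted p = 0.034 in limma).

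Pyruvate dehydrogenase kinases block the entry of pyruvate into the mitochondria. Pdk1, the hypoxia-induced form, was at 10.99, 11.00, 10.67 and 10.57 in the knockout and at 10.34, 10.62, 10.32 and 10.94 in the rescued arrays of 6A, 6B, 6D and 84. It was 1.57-fold, 1.30-fold and 1.28-fold lower with PICALM in the first 3 lines and 1.29-fold higher in 84, with both probe sets alike. The difference of the changes was 0.82 ± 0.15 (adjusted p = 0.0704 in limma). Pdk3 had no such pattern, with −0.30, −0.18, 0.02 and −0.01, and was 0.36 ± 0.09 higher in line 84 over both states (adjusted p = 0.0449).

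Bnip3, a mitochondrial outer membrane protein that starts the removal of mitochondria by autophagy, had the largest difference between line 84 and the others. Its knockout levels were 12.09, 11.90, 11.44 and 11.39 in 6A, 6B, 6D and 84, and its rescued levels 11.07, 11.29, 10.94 and 12.37. It was 2.03-fold, 1.53-fold and 1.42-fold lower with PICALM in the first 3 lines and 1.97-fold higher in 84. The rescued array of 84 was thus the highest of all 8, and the difference of the changes was 1.69 ± 0.22 (adjusted p = 0.0362 in limma).

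The prolyl hydroxylases that tag HIF for destruction are themselves HIF targets. Egln3 (PHD3) was at 10.64, 10.63, 10.70 and 11.44 in the knockout and at 9.82, 10.00, 10.05 and 11.54 in the rescued arrays of 6A, 6B, 6D and 84. It was 1.76-fold, 1.54-fold and 1.56-fold lower with PICALM in 6A, 6B and 6D, and it was the single gene of the 32 to pass when line 84 was left out and the line was a block (−0.69 ± 0.06, adjusted p = 0.0961 in limma, where 0.221% of probe sets passed). This fit was chosen after the data were seen, and without the block the adjusted p was 0.12. The other Egln3 probe set, at a mean level of 9.13, gave −0.74 ± 0.09 in the blocked fit and did not pass (adjusted p = 0.143 in limma). In 84 the difference was 0.11, on a level that stood 1.18 ± 0.07 above the other lines (adjusted p = 0.00159), and the difference of the changes was 0.80 ± 0.11 (adjusted p = 0.0459). Egln1 (PHD2), the main oxygen sensor, was at 10.09, 10.15, 9.89 and 9.38 in knockout and 9.87, 10.04, 9.81 and 9.74 in rescued cells. Its difference of the changes was 0.49 ± 0.10 (adjusted p = 0.0875), and its level in 84 was lower, by −0.41 ± 0.11 (adjusted p = 0.048).

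Hif1a, the oxygen-sensitive subunit itself, was at 11.87, 11.74, 11.84 and 11.17 in the knockout and 11.69, 11.78, 11.74 and 11.58 in the rescued arrays. The change in 84 was 1.34-fold, and its difference from the others of 0.50 ± 0.12 was the call closest to the threshold (adjusted p = 0.118 in limma), lost when arrays were centred on the median (0.1243). Of the 4 Hif1a probe sets tested, 1 had the pattern, and in 3 the change in 84 exceeded that of every other line. Averaged over the probe sets, the difference was smaller, at 0.33. Regulation of this subunit is largely at the protein level, which arrays do not measure.

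**Figure D3:**
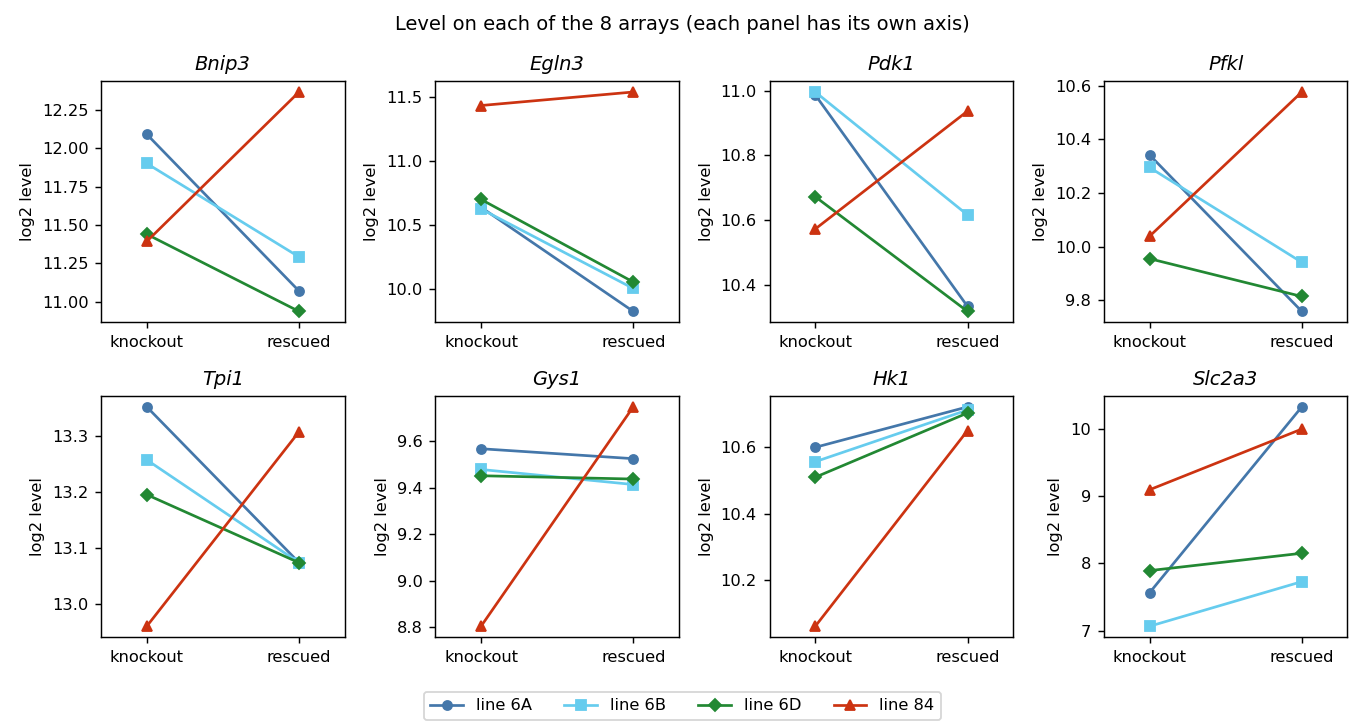
Log2 level of 8 genes in the knockout and the rescued array of each cell line, with 1 line drawn per cell line and an axis of its own in each panel. Bnip3, Pdk1, Pfkl and Tpi1 are lower when rescued in 6A, 6B and 6D and higher in 84, Egln3 differs by −0.81, −0.62 and −0.65 in 6A, 6B and 6D and by 0.11 in 84, Gys1 and Hk1 are lowest in the knockout array of 84, and Slc2a3 is higher when rescued in all lines.

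Of the hypoxia-induced stress genes, P4ha1, a subunit of the enzyme that hydroxylates collagen, was at 9.40, 9.25, 9.05 and 9.16 in the knockout and at 8.80, 8.94, 8.78 and 9.69 in the rescued arrays of 6A, 6B, 6D and 84. It was 1.52-fold lower in 6A and 1.44-fold higher in 84, and the difference of the changes was 0.92 ± 0.16 (adjusted p = 0.0652 in limma). Both probe sets of P4ha1 had the pattern, but averaged over them the difference was smaller, at 0.73. Ndrg1, a stress-responsive differentiation gene, was at 8.60, 8.53, 8.19 and 8.59 in knockout and 8.53, 8.52, 7.98 and 9.19 in rescued cells. Its differences were small in the first 3 lines (−0.08, −0.01 and −0.21) and was 1.51-fold higher in 84, a difference of 0.69 ± 0.11 (adjusted p = 0.0567), and all 5 of its probe sets had the pattern and a call. Ddit4 (REDD1), an inhibitor of mTORC1 signaling, was at 9.06, 8.69, 8.26 and 9.65 in knockout and 8.08, 8.15, 7.93 and 10.00 in rescued cells. It was 1.97-fold lower in 6A, and its level in 84 was 1.46 ± 0.19 above the other lines (adjusted p = 0.00933), but the difference of the changes, 0.97 ± 0.26, did not pass (adjusted p = 0.144).

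Among the remaining hypoxia genes, Higd1a, a mitochondrial respiratory chain factor, had the pattern at −0.26, −0.06, −0.04 and 0.30 on its brightest probe set. Its other probe sets were dimmer and mixed, at −0.32, 0.02, −0.21 and 0.01 and at 0.11, −0.06, 0.06 and 0.28. Vegfa, the angiogenic growth factor, had 0.16, 0.10, −0.02 and 0.26 on its brightest probe set, while its second probe set was 1.23 higher in 84 and called (difference of the changes 1.19, adjusted p = 0.0535 in limma), so the probe sets of Vegfa disagree in size. P4ha2 and Adm had mean levels of 4.43 and 4.72, below the lower quartile of the arrays.

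Glycogen is the storage form of glucose, and hypoxia is known to raise its synthesis. Gys1, the glycogen synthase of most tissues, was at 9.57, 9.48, 9.45 and 8.80 in the knockout and at 9.53, 9.41, 9.44 and 9.75 in the rescued arrays of 6A, 6B, 6D and 84. It differed by −0.04, −0.06 and −0.01 in the first 3 lines and was 1.92-fold higher in 84, and the difference of 0.98 ± 0.09 had the lowest adjusted p of these genes (0.017 in limma). Its other probe set was called as well but was mixed in the first 3 lines. Gbe1, which makes the branches of glycogen, was at 8.98, 9.02, 9.34 and 7.08 in knockout and 9.48, 9.28, 9.23 and 8.09 in rescued cells. It was 2.01-fold higher with PICALM in 84 and its level there was lower than in the other lines, by −1.64 ± 0.07 (adjusted p = 0.000698). Its differences were 0.51, 0.26 and −0.12 in 6A, 6B and 6D, and the difference of the change in 84 did not pass (0.79 ± 0.24, adjusted p = 0.177).

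The lines were also ordered by the size of the difference. Of the 19 genes lower in 6A, 6B and 6D and higher in 84, 14 had the largest of the 3 negative differences in 6A and 14 the smallest in 6D, beside 42.2% and 44.9% of the 737 genes with this pattern. The SD of the change over all probe sets had the same order. The medians of the 10 neutrophil granule markers stood in the same order, higher with PICALM by 1.23 in 6A, 0.60 in 6B and 0.38 in 6D, and by 1.94 in 84 (log2). Whether these cells have a part in the results was not tested. In bulk RNA, fewer cells of a type and less RNA per cell cannot be told apart.

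The difference between line 84 and the others had 2 sides, a lower knockout array and a higher rescued array. In the rescued state, 84 lay above the other 3 lines in 21 of the 33 genes (63.6%), beside 38.9% of all genes. In the knockout state it lay below them in 18 (54.5%), beside 31.4%. Bnip3 had both, at −0.42 against the mean of the other knockout arrays and 1.27 against the mean of the other rescued arrays. Hk1, Egln1 and Hif1a were low in the knockout array (−0.49, −0.66 and −0.65) and near the others when rescued (−0.06, −0.17 and −0.15). Aldoc was at −1.28 and −0.18, but the other lines had no common level of it. They spread from 7.87 to 9.34 in the knockout and from 7.41 to 9.18 in the rescued arrays. Pfkl, P4ha1 and Ndrg1 were near the others in the knockout array (−0.16, −0.07 and 0.15) and above them when rescued (0.74, 0.85 and 0.85).

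**Figure D4:**
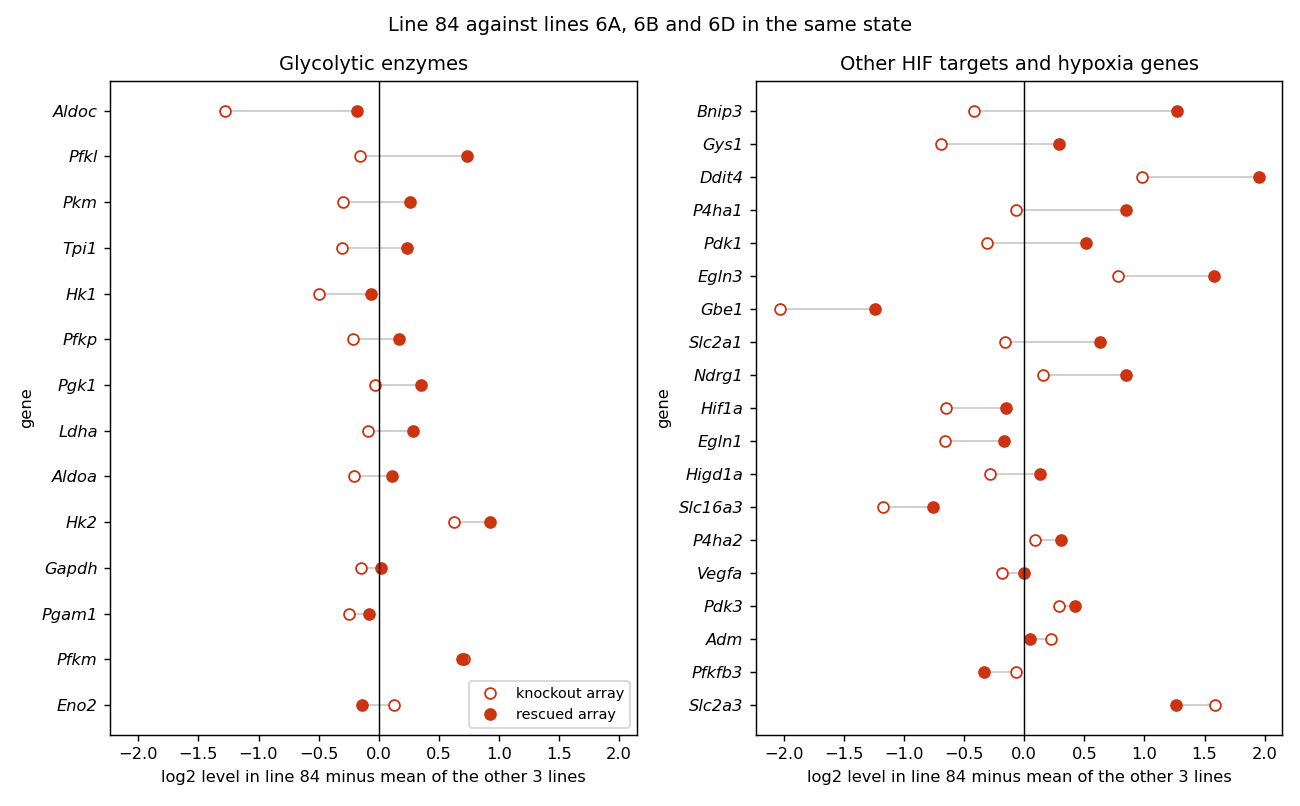
Log2 level of each of the 33 genes in line 84 minus the mean of lines 6A, 6B and 6D in the same state, with open circles for the knockout and filled circles for the rescued array. The filled circle lies to the right of the open one for all genes except Pfkm, Eno2, Adm, Pfkfb3 and Slc2a3, and Gbe1 (−2.03 and −1.24) and Ddit4 (0.98 and 1.95) are the farthest from 0.

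Averaged over both states, line 84 differed from the others in 15 of the 32 genes, of which 8 were higher and 7 lower. This is close to the background, since 22.1% of probe sets were called higher and 18.7% lower. The higher ones beside Hk2, Pfkm, Egln3, Ddit4 and Pdk3 were Pfkl (0.29 ± 0.10, adjusted p = 0.104), Slc2a1 (0.24 ± 0.08, 0.0957) and P4ha1 (0.39 ± 0.09, 0.042). The lower ones beside Slc16a3, Egln1 and Gbe1 were Hif1a (−0.40 ± 0.05, adjusted p = 0.00864), Hk1 (−0.28 ± 0.05, 0.0243), Gys1 (−0.20 ± 0.07, 0.0855) and Pgam1 (−0.17 ± 0.05, 0.0835), all in limma.

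Markers of other blood cells also differed in line 84. The mean level of the 9 measured mast cell and basophil markers (of 10) was 5.63 to 5.78 in the knockout arrays of 6A, 6B and 6D and 7.67 in that of 84, and 5.80 to 6.97 and 8.93 in the rescued arrays (log2). The change in 84 exceeded that of every other line in 4 of these 9 markers, beside 30.7% of all genes. The neutrophil granule markers had mean levels of 9.41 to 9.64 and 8.40 in knockout cells. In rescued cells they were at 10.1 to 11.3, where 84 was at 10.1. Their change in 84 exceeded that of every other line in 4 of 10. Other lists differed as well. In the knockout arrays, progenitor markers averaged 10.1 to 10.2 in 6A, 6B and 6D and 11.1 in 84. Monocyte markers averaged 8.39 to 8.83 and 7.91, and erythroid markers 5.36 to 5.41 and 5.95. The change in 84 exceeded all others in 4 of 8 erythroid and 7 of 12 hematopoietic identity genes. It did so in 3 of 10 progenitor and 3 of 9 monocyte genes. The 11 proliferation genes had medians of 0.00 to 0.05 in all lines. The part of these markers in the results was not tested.

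Other genes of the pathway were counted in the same way, beside 5.95% of all genes with the pattern and 3.82% of all probe sets called for a higher change in 84. Of 44 further HIF targets, 12 were lower in 6A, 6B and 6D and higher in 84 and 10 were called for a higher change in 84, among them Ak4, a mitochondrial adenylate kinase (−0.88, −1.43, −1.38 and 0.96), Selenbp1, a methanethiol oxidase (−0.40, −0.40, −0.20 and 1.66), Fam162a, a mitochondrial hypoxia-induced gene (−0.16, −0.24, −0.12 and 0.58), and Ero1a, an oxidase of the endoplasmic reticulum (−0.19, −0.01, −0.04 and 0.63). Their adjusted p were 0.0257, 0.00888, 0.0351 and 0.0536 in limma. Among 21 other glycolysis genes, 3 had the pattern, and the change in 84 exceeded that of every other line in 11, beside 30.7% of all genes. The median of the difference between the lines was 0.09 over these genes, beside −0.02 over all genes (log2). Slc16a1 (MCT1), another lactate carrier, had −0.25, −0.20, −0.07 and 0.21 (adjusted p = 0.157). Of 16 genes of the HIF machinery 1 had the pattern and 1 was called, which is near those shares. It was Siah2, a ubiquitin ligase that acts on the prolyl hydroxylases, that was called (−0.07, 0.00, −0.03 and 0.35, adjusted p = 0.114 in limma).

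Genes of neighbouring carbohydrate pathways were also counted. The shares of all genes and probe sets given above apply here too, and 1 call among 30 genes is near the share of calls. Of 10 pentose phosphate genes, 6 (H6pd, Pgd, Rpia, Rpe, Tkt and Taldo1) were higher with PICALM in all 4 lines (13.4% of all genes), and 1 (Prps2) was lower in all (12%). The median difference of the change in 84 from the other lines was 0.13 over these genes, beside −0.02 over all genes (log2). Pgd, which makes NADPH, had 0.12, 0.23, 0.14 and 0.46. Of 30 genes of pyruvate entry and the TCA cycle, 2 had the pattern (5.95% of all genes) and 8 were lower in all 4 lines (12%), with medians of −0.04, −0.03, −0.02 and 0.02, and Idh1, the cytosolic isocitrate dehydrogenase, was called in 84 (0.93, adjusted p = 0.0231 in limma). Of 16 glycogen genes beside Gys1 and Gbe1, Ugp2, which makes UDP-glucose (0.59 in 84, adjusted p = 0.0628), and Pgm1, which interconverts glucose phosphates (0.55 in 84 and −0.38 in 6A, adjusted p = 0.0759), were called.

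**Figure D5:**
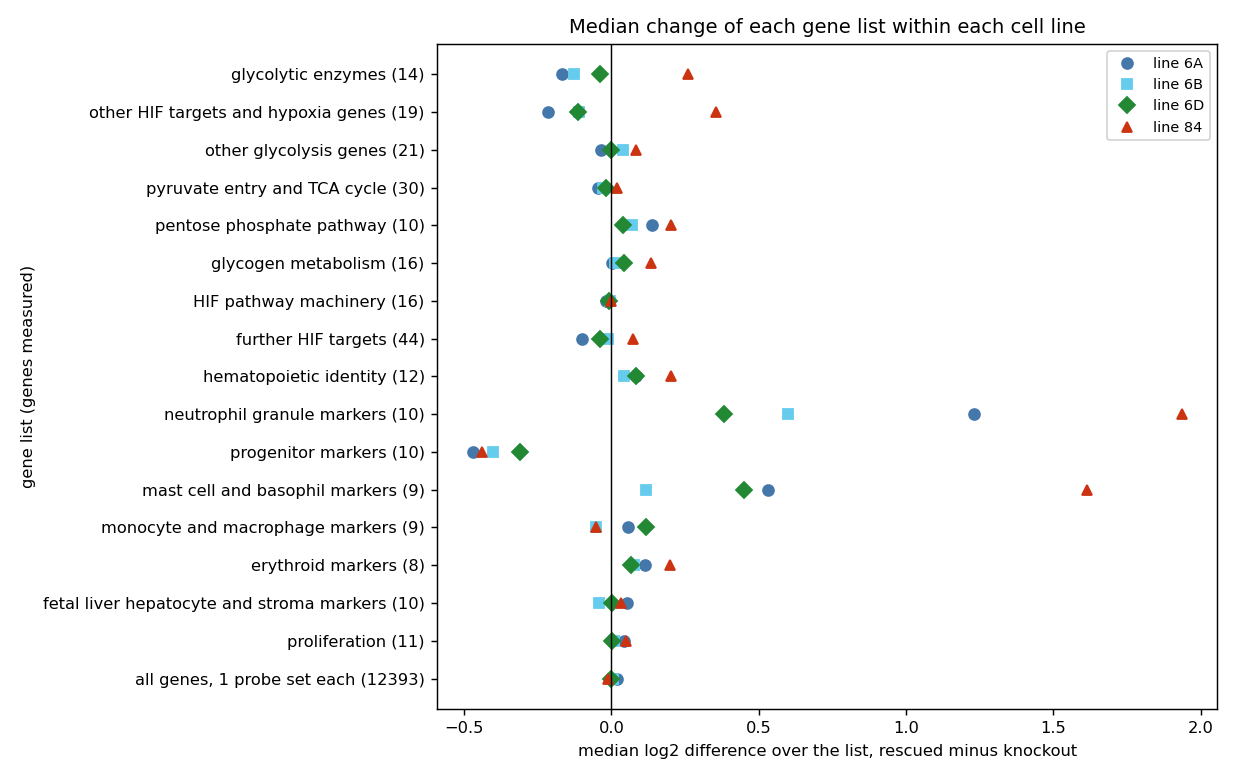
Median log2 difference, rescued minus knockout, of each gene list in each of the 4 cell lines, with the number of genes measured in brackets. The glycolytic enzymes and the other HIF targets lie below 0 in 6A, 6B and 6D and above 0 in 84 (0.26 and 0.36), the neutrophil granule markers lie above 0 in every line, and the progenitor markers lie below 0 in every line.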

How the data were processed

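Expression was measured on 8 Affymetrix mouse arrays, of the smaller A version by the labels and of the full version by the methods. The authors ran RMA on them, which gives log2 values, and those deposited log2 values were used without further scaling. The table held 22690 probe sets. Leaving out 64 controls left 22626 for testing, and 20380 of these carried 1 symbol. Rescued and knockout arrays were compared in limma (version 3.58.1, R 4.3.3), two-sided, adjusted over all probe sets by the Benjamini-Hochberg method, at the 12.3% false discovery rate that the methods give for SAM. The change in line 84 was compared with the other lines in limma on the 4 within-line differences, and its level on the 4 line means. The fits were tested on simulated data that gave all lines the same spread, so the assumption about the spread of line 84 was not examined there.

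Knockout and rescued arrays are paired by their cell line. Within a pair, deviations from the mean of the group had correlations of 0.623 to 0.811, and for all 8 arrays the best correlation was within the own line. The methods name no pairing, so the line was a block in an alternative only. The study describes the 4 lines as biological replicates, and each state of a line was measured once, so p-values rest on the spread between lines. Arrays give no counts, and their number limits the precision.

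The genes, the lists and the tests were chosen with earlier results of these data known. Genes were described in full if they had the same direction in all lines, passed a test, or had the 3 largest rises or falls, and at most 4 of each other list were named, except where a count was spelled out. The hypoxia elements were searched in 250 bases before each start in RefSeq promoter sequences.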

Additional observations from a re-analysis of the deposited data

Results flagged for a closer look

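A test of the highest and lowest array in each group of 4 (the gap to the nearest array over the range of the group) marked 11 of 66 groups, and the array was from line 84 in each. Chance marks about 1 in 20 groups, but over all genes 14.1% of groups were marked here and 77.9% of those by line 84, so the share among these genes is near that of the whole array. The rescued array was the highest for Tpi1 (0.999), Hk2 (0.954), Pgk1 (0.939), Ldha (0.928), Ddit4 (0.897), Pfkm (0.884) and Egln3 (0.866). The knockout array was the highest for Egln3 (0.907) and the lowest for Gys1 (0.848), Gbe1 (0.839) and Hk1 (0.833).

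The change with PICALM in line 84 differed from that in the other lines in limma for 12 genes. The difference, on the log2 scale, was 1.69 for Bnip3, 1.10 for Aldoc, 0.984 for Gys1, 0.923 for P4ha1, 0.897 for Pfkl, 0.824 for Pdk1, 0.800 for Egln3, 0.693 for Ndrg1, 0.541 for Tpi1, 0.503 for Hif1a, 0.488 for Egln1 and 0.433 for Hk1. Line 84 was measured as 1 pair of arrays, so the spread of its change is not known.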

How the results depend on the processing

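Blocked by cell line, the comparison of rescued with knockout cells called 18 probe sets instead of 0, and without line 84 (chosen after the data were seen) 50. SAM as coded here called 61 unpaired and 635 paired by line. Without 1 array or line the limma count was 0 to 8, with 8 reached without line 84. Of these genes Egln3 alone passed, on its brightest probe set and without line 84 (−0.69, adjusted p = 0.0961 with the block and 0.1204 without it in limma). With 1 array left out, the difference ran from −0.32 to 0.0304 for Pfkm and from −0.0939 to 0.72 for Gbe1, and both turned their sign without the knockout array of line 84. Genes higher in all lines numbered 2 to 4 when a line was left out, and genes lower in all lines 1 to 20, with 20 reached without line 84.

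For the change in line 84, 4 genes and 502 probe sets passed at 0.05, and 21 genes with the dimmest 40% of probe sets left out. Without 1 of the other lines 7 to 11 genes and 780 to 1207 probe sets passed. Hk1, Egln1 and Hif1a lost their call without any of the 3 lines, Tpi1 without 6A or 6B, and Pfkl without 6B (adjusted p 0.1248 to 0.216). Hif1a also lost it with median centring (0.1243). The level of line 84 gave 5950 probe sets at 0.05 and 4988 in rescued arrays alone. The cause of these moves was not tested, beyond fewer arrays or probe sets entering the fit.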
